A study of Mus musculus with 6 samples.

Results

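The genes described here are 10 adipogenic regulators and lipid storage genes, namely Pparg, Cebpa, Cebpb, Cebpd, Fabp4, Lpl, Plin2, Cd36, Adipoq and Angptl4, in synovial fibroblasts (SFs) of arthritic mice with and without amisulpride. They were chosen by name for their known roles in fat cell formation, with earlier results of these data known. Each was found once among the 49548 genes of the deposited table. SFs are the connective tissue cells that line and support the joint. They came from the ankle joints of 8-week-old mice that carry a human TNF transgene (hTNFtg) and develop chronic polyarthritis, and CD45+ cells, the leukocytes, were depleted from the cultures at the first passage. Cultures of 1 group were left untreated and those of the other were given amisulpride, an antipsychotic and antagonist of dopamine receptors, at 500 μM for 48 hours. Both groups carried the transgene and each had 3 libraries. The study's methods speak of vehicle for its control cultures whereas the labels list no treatment, and the labels' wording is kept. The question was what the drug does to the expression profile of arthritic SFs, and for these genes whether the program of fat cell formation differed between the groups.

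Adipogenesis is the course by which a fibroblast-like precursor becomes a fat cell. C/EBPβ and C/EBPδ, transcription factors of the basic leucine zipper class, act early in it and induce C/EBPα and PPARγ, a nuclear receptor for fatty acids and their derivatives, which then hold each other on and switch on the genes of lipid uptake and storage. Among the latter are Lpl, which frees fatty acids from circulating lipoproteins, Cd36 and Fabp4, which carry them into and through the cell, Plin2, which coats lipid droplets, and Adipoq, the fat cell hormone adiponectin. In joints and elsewhere, Cebpb and Cebpd are also known as factors of the response to inflammatory cytokines, and Fabp4, Lpl, Cd36 and Plin2 are also expressed by macrophages.

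Values are normalised counts, that is, reads per gene scaled by the authors to equalise the libraries and rounded. The libraries came from a kit that reads the 3′ end of transcripts, so a value does not grow with gene length, but genes were not ranked against each other. Each library detected 16851 to 18364 genes, at approximate depths of 2.52 to 4.72 M reads, with that of untreated replicate 1 uncertain. A count of 3 reads, the most that a count of 0 allows, was worth 2.50 to 5.37 normalised counts. Amisulpride replicate 3, the shallowest library, stood apart on the first principal component, which held 37.1% of the variance, with a score of 73.9 against -38.2 to 10.4 in the other libraries. Every fibroblast marker listed was detected, and their summed value was 52213 to 75946 in untreated and 62649 to 113648 in treated libraries. Macrophage markers were detected in every library too, and their values are given below.

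The regulators differ in their genes as well as in their roles. Cebpa, Cebpb and Cebpd each consist of 1 exon, whereas the principal transcripts of Pparg have 7 exons spread over 129449 bp, and reads from the 3′ end cannot tell its start sites apart. Of the 10 genes, 6 matched the RefSeq table of promoters (GRCm38.p6), which gives 250 bases before and 50 from each start site, with 8 windows in all. Those of Cebpb, the regulator with the lower value in every treated library, of Cebpa, its single-exon relative, and of the 3 start sites of Pparg are shown, since expression at these genes is what the comparison concerns. The most downstream start of Pparg is that of Pparg2, the form known from fat cells. All 5 lie on the plus strand, at chr2:167688665-167688964 for Cebpb, chr7:35119043-35119342 for Cebpa, and chr6:115360894-115361193, chr6:115362099-115362398 and chr6:115421816-115422115 for Pparg. Capitals mark matches, on either strand, to the core letters of 3 promoter elements. For the GC box these are GGGCGG. For the element named after its letters they are CCAAT, and for the TATA box they are TATAAA.
Cebpb: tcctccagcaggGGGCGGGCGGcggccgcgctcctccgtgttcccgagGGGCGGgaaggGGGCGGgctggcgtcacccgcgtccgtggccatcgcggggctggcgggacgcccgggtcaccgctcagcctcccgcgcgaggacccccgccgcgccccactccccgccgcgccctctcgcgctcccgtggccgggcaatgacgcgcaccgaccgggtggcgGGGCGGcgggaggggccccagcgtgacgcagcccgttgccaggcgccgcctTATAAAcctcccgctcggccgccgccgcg
Cebpa: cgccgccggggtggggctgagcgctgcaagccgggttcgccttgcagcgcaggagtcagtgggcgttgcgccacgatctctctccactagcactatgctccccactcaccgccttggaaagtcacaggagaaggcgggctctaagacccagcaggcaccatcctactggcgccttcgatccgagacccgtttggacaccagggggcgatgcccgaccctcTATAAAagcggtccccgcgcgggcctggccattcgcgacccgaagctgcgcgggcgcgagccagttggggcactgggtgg
Pparg, start 1: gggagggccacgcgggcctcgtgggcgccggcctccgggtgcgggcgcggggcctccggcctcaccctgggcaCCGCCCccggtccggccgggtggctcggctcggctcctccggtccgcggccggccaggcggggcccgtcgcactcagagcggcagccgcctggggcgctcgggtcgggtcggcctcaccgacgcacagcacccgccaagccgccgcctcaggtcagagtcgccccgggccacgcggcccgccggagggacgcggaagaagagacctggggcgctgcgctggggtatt
Pparg, start 2: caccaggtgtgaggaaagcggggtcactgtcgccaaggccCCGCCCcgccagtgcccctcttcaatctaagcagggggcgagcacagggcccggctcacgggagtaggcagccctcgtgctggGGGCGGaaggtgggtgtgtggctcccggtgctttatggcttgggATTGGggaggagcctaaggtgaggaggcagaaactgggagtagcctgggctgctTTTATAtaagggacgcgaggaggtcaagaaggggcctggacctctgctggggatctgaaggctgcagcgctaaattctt
Pparg, start 3: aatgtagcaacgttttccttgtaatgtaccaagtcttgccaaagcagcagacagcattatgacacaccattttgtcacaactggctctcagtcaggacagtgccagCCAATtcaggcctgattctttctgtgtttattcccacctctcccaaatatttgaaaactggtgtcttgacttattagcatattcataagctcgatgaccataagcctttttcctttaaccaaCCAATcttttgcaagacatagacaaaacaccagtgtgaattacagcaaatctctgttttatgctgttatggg

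The window of Cebpb was 80.7% G or C and held 5 GC boxes, the first 2 of which overlap, and a TATA box 21 bases after the annotated start. The window of Cebpa, at 67.3% G or C, held a TATA box 30 bases before its start and none of the other motifs. The G and C content of the Pparg windows was 80.3% at start 1, 62.7% at start 2 and 40.3% at start 3, where 2 CCAAT boxes were the only matches. Over all 32851 windows of the table the median was 52.7%. A GC box was found in 35.7% of all windows and 5 of the 8 windows of these genes, a CCAAT box in 37.4% and 5, and a TATA box in 13.6% and 3. The palindromic C/EBP motif TTGCGCAA (0.183% of all windows), the cAMP response element TGACGTCA (1.79%) and the PPAR direct repeat AGGTCANAGGTCA (0.0396%) matched none of the 8 windows. These matches are a description of the letters only.

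Cebpb (ENSMUSG00000056501), at chr2:167688915-167690418 on the plus strand, was lower in treated than in untreated SFs. Its values were 458, 386 and 308 normalised counts in untreated replicates 1, 2 and 3, and 300, 220 and 213 in amisulpride replicates 1, 2 and 3. The highest treated library thus lay just under the lowest untreated one, and in each of the 3 pairs of the same replicate number the treated library was lower. The means were 384 ± 75.0 and 244 ± 48.3 normalised counts (SD, n = 3). This is a log2 fold change of -0.65 ± 0.26 (SE; 95% interval -1.22 to -0.08), with an unadjusted p of 0.0291 by limma, which did not hold after adjustment over all genes tested (adjusted p = 0.382). Leaving out any of 4 libraries brought the unadjusted p above 0.05, to 0.0972 for untreated replicate 1, 0.0739 for untreated replicate 2, 0.0832 for amisulpride replicate 2 and 0.0553 for amisulpride replicate 3, at log2 fold changes of -0.51, -0.64, -0.58 and -0.56 by limma. In bulk cultures a lower share of the cells that express a gene and less of its RNA in each cell cannot be told apart. Tmem189 overlaps the first part of Cebpb on the other strand, with 127 to 221 normalised counts in untreated and 88 to 147 in treated libraries, and whether reads were counted by strand is not given in the sources used here.

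Cebpd (ENSMUSG00000071637), at chr16:15887286-15891031 on the plus strand, had values in the other direction from its partner. Its untreated values were 637, 797 and 468 normalised counts and its treated values 845, 806 and 895. All 3 treated libraries lay above the 3 untreated ones, though amisulpride replicate 2 (806) only just exceeded untreated replicate 2 (797). The means were 634 ± 165 and 849 ± 44.6 normalised counts (SD, n = 3). The log2 fold change of 0.45 ± 0.26 (SE; 95% interval -0.11 to 1.01) did not pass the limma test (unadjusted p 0.104, adjusted p = 0.564), and ranged from 0.25 to 0.63 when 1 library was left out. The 3′ end of Spidr lies within Cebpd on the other strand, and Spidr stood at 47 to 69 normalised counts in untreated and 66 to 116 in treated libraries.

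Pparg, the factor without which fat cells do not form, was near the limit of detection. The gene (ENSMUSG00000000440), at chr6:115360951-115490399 on the plus strand, had 5, 1 and 4 normalised counts in untreated libraries and 6, 11 and 23 in treated ones, which is approximately 5, 1 and 5 reads against 7, 8 and 13. The groups did not overlap, but the lowest treated value of 6 lay next to the highest untreated value of 5, and untreated replicate 2 was below the value of 3 reads. With only 2 libraries at 10 or above, Pparg did not pass the filter on low values and has no value in the main test. In a fit without the filter its log2 fold change was 1.69 ± 0.72 (SE; 95% interval 0.14 to 3.24), with an unadjusted p of 0.0346 by limma (adjusted p = 0.517). This was past the thresholds of the study, which asked for a log2 fold change of 1 or more in size and an unadjusted p under 0.05. In that fit 1313 of 22775 genes passed them. The value of 23, the highest, came from the library that stood apart.

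Cebpa (ENSMUSG00000034957), the partner of Pparg in the later phase, was low in both groups. Its values, at chr7:35119293-35121928 on the plus strand, were 36, 26 and 41 normalised counts in untreated and 43, 40 and 30 in treated libraries. The groups overlapped, and the log2 fold change was 0.14 ± 0.34 (SE; 95% interval -0.61 to 0.89; unadjusted limma p 0.694, adjusted p = 0.911). The antisense gene Gm45091 on the other strand had 1 to 5 normalised counts in untreated and 6 to 14 in treated libraries.

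**Figure D1:**
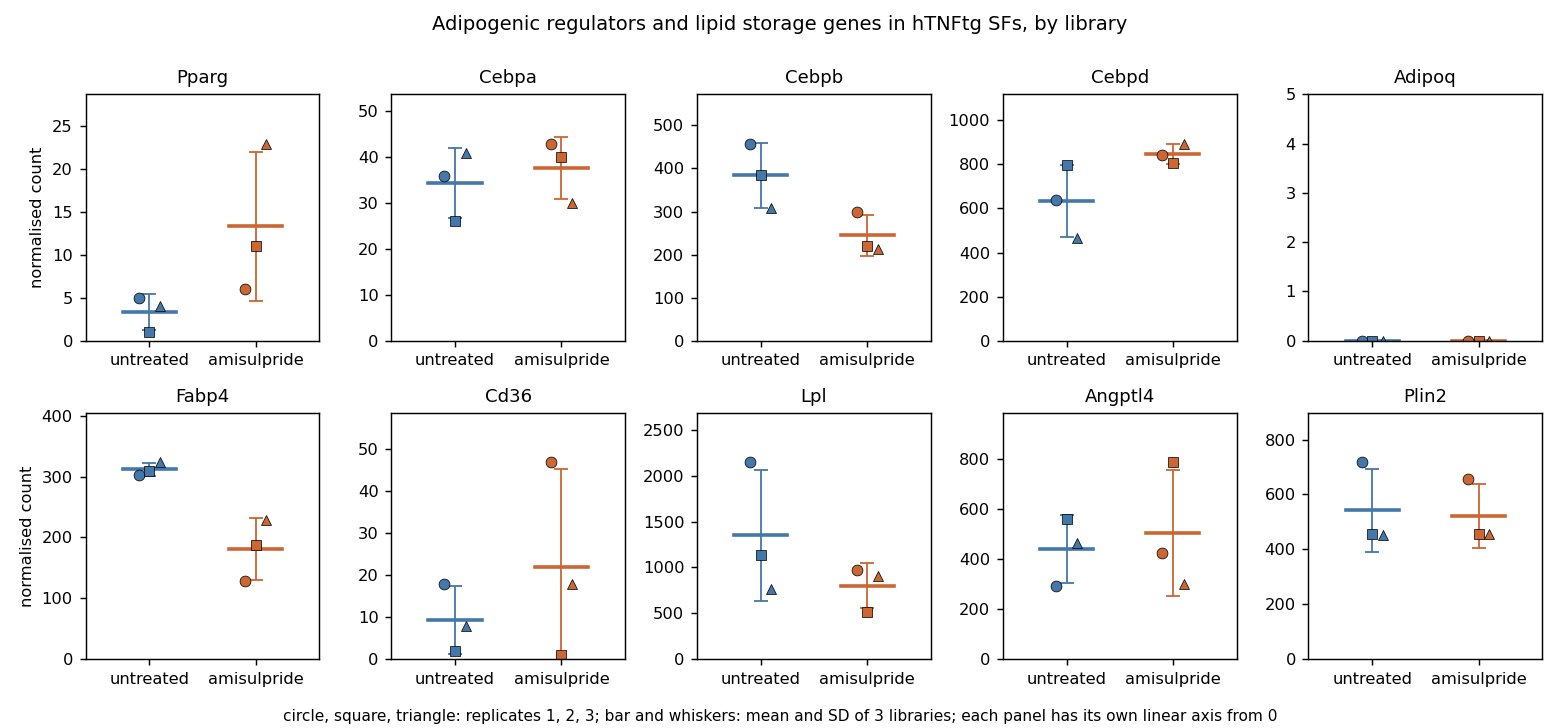
Normalised counts (vertical axes, linear from 0, each panel with its own scale) of the 10 genes in the 3 untreated and 3 amisulpride libraries of hTNFtg SFs. Circles, squares and triangles are replicates 1, 2 and 3, and horizontal bars with whiskers are the mean and SD. The treated values of Cebpb and Fabp4 lie below, and those of Cebpd and Pparg above, all untreated values, while those of the other genes overlap and Adipoq is at 0 in all 6 libraries.

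Fabp4 (ENSMUSG00000062515), the fatty acid binding protein of fat cells and macrophages, was the gene of the set with the lowest p-value. At chr3:10204088-10208576 on the minus strand, it had 303, 309 and 324 normalised counts in untreated libraries, a narrow range, and 128, 187 and 229 in treated ones. Each treated library lay well below each untreated one. The means were 312 ± 10.8 and 181 ± 50.7 normalised counts (SD, n = 3), and the log2 fold change was -0.82 ± 0.27 (SE; 95% interval -1.41 to -0.23), with an unadjusted p of 0.0107 by limma and an adjusted p of 0.261. Without amisulpride replicate 1, the lowest library, the log2 fold change was -0.59, with an unadjusted p of 0.054 by limma, and without amisulpride replicate 3 it was -1.01, past the study thresholds. Its close relative Fabp5, a neighbour in function, had 304, 409 and 429 normalised counts untreated and 225, 250 and 344 treated, with a log2 fold change of -0.49 and an unadjusted p of 0.0913. None of the 30-base words in the last 400 bases of the Fabp4 transcript occurred in a transcript of another gene.

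Lpl (ENSMUSG00000015568), lipoprotein lipase, varied widely within each group. At chr8:68880491-68907448 on the plus strand, it had 2149, 1138 and 761 normalised counts in untreated and 972, 517 and 911 in treated libraries. The treated library was lower than the untreated one in replicates 1 and 2 and higher in replicate 3. The means were 1349 ± 718 and 800 ± 247 normalised counts (SD, n = 3), and the log2 fold change was -0.67 ± 0.38 (SE; 95% interval -1.51 to 0.16; unadjusted limma p 0.103, adjusted p = 0.562). With the replicate number as a block the same log2 fold change of -0.67 had an SE of 0.29 and an unadjusted p of 0.0355 by limma (adjusted p = 0.296). Without untreated replicate 3 it was -1.02, past the study thresholds (unadjusted p 0.0269 by limma).

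Angptl4 (ENSMUSG00000002289), a secreted inhibitor of lipoprotein lipase and a known target of PPARs, did not separate the groups. At chr17:33773750-33781575 on the minus strand, its values were 293, 561 and 466 normalised counts in untreated and 426, 788 and 302 in treated libraries. Both the highest and the second lowest value were from treated cells. The log2 fold change was 0.13 ± 0.36 (SE; 95% interval -0.66 to 0.93; unadjusted limma p 0.719, adjusted p = 0.918).

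Plin2 (ENSMUSG00000028494), the lipid droplet coat protein found in most cells, had nearly the same values in both groups. At chr4:86648386-86670060 on the minus strand, it had 718, 456 and 453 normalised counts in untreated and 657, 456 and 455 in treated libraries. Replicate 1 was the highest in each group, and replicates 2 and 3 were alike across the groups. The log2 fold change was -0.04 ± 0.27 (SE; 95% interval -0.64 to 0.56; unadjusted limma p 0.885, adjusted p = 0.971).

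Cd36 (ENSMUSG00000002944), the scavenger receptor and fatty acid translocase, was low and uneven. At chr5:17781690-17888801 on the minus strand, it had 18, 2 and 8 normalised counts in untreated and 47, 1 and 18 in treated libraries, so that replicate 1 was the highest and replicate 2 the lowest in both groups. Both replicate 2 values were below that of 3 reads. The log2 fold change was 0.61 ± 1.07 (SE; 95% interval -1.73 to 2.95; unadjusted limma p 0.579, adjusted p = 0.866), and without amisulpride replicate 2 it was 1.92 (unadjusted p 0.0349 by limma), while without untreated replicate 2 it was -0.10.

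**Figure D2:**
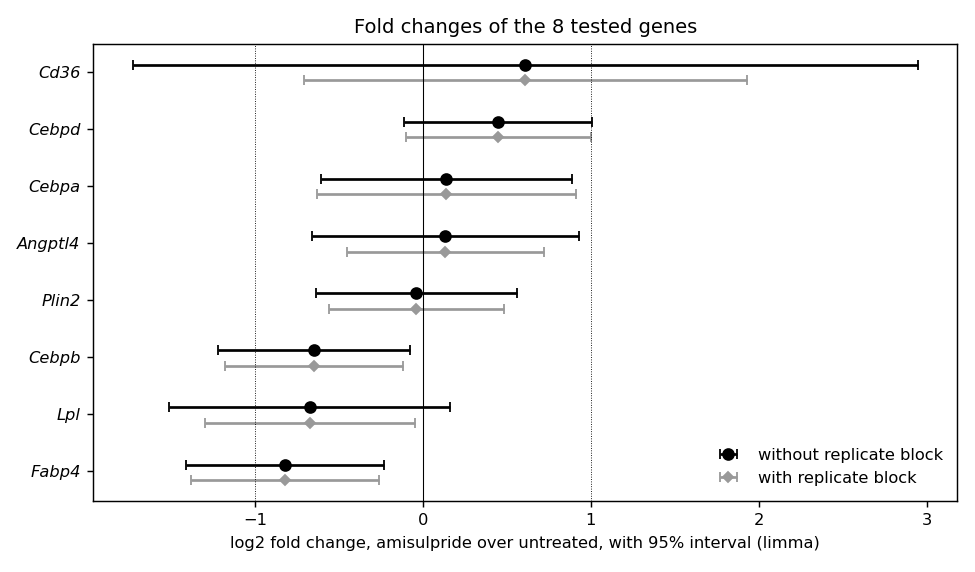
Log2 fold change of amisulpride over untreated (horizontal axis) of the 8 genes that passed the filter on low values, with 95% intervals from limma, without (black circles) and with (grey diamonds) the replicate number as a block. Dotted lines stand at -1 and 1. The intervals of Fabp4 and Cebpb exclude 0 in both fits and that of Lpl only with the block, from -1.30 to -0.05.

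Adipoq (ENSMUSG00000022878), at chr16:23146536-23158028 on the plus strand, was at 0 in all 6 libraries, which allows up to 2.50 to 5.37 normalised counts, counting error only. It is not alone in this. Of 16 markers of mature fat cells, 9 were at 0 in every library, among them Lep, Cfd, Cidec, Slc2a4 and Ucp1, which encode leptin, adipsin, a droplet fusion protein, the insulin-responsive glucose transporter and the thermogenic uncoupling protein. The summed value of the 16 was 12 to 32 normalised counts in untreated and 13 to 27 in treated libraries. Only Lipe, hormone-sensitive lipase, passed the filter, with 2 to 16 normalised counts and a log2 fold change of -0.75 (unadjusted p 0.319 by limma).

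Of the 8 genes tested, 4 had a higher and 4 a lower mean log2 value in treated libraries, and the median log2 fold change was 0.05 against 0.00 over all 12614 genes tested. None passed an adjusted p of 0.05 by limma, as did 0.285% of all genes tested, or 2.08% with the replicate block. At an unadjusted p under 0.05, 2 genes were lower (Fabp4 and Cebpb) and 0 higher, where 5.77% of all genes tested were lower and 5.11% higher. With the replicate block these were 3 lower, Lpl being added, and 0 higher, against 7.43% and 7.14% of all genes. None passed the study thresholds, which 5.70% of all genes tested did. Among the 8, the groups did not overlap for 2 genes that were lower and 1 that was higher (Cebpd). The shares of all genes tested were 8.66% and 7.80% in these directions. Pparg, whose groups did not overlap either, was not tested and is not in these counts. The genes were chosen with earlier results of these data known, so these shares are description and not a test. Without both libraries of replicate 1, an alternative added after the data were seen, Cebpb kept its unadjusted p under 0.05 (-0.67, unadjusted p 0.0497 by limma) and Fabp4 did not (-0.61, unadjusted p 0.0664).

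**Figure D3:**
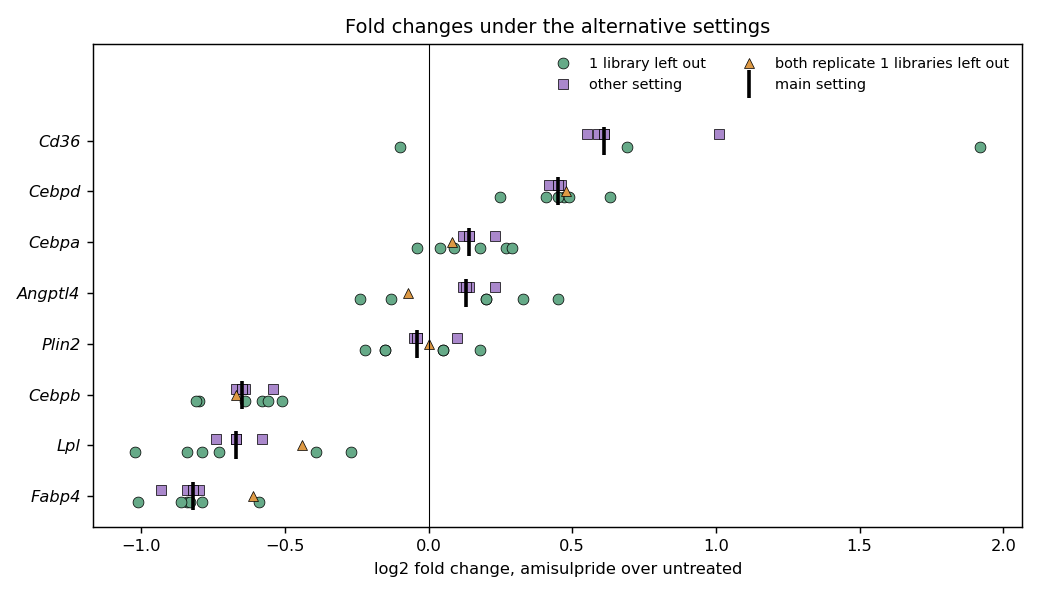
Log2 fold change of amisulpride over untreated (horizontal axis) of the 8 tested genes under each alternative setting in which the gene passed the filter: 1 library left out (green circles), both replicate 1 libraries left out (orange triangles), other settings (purple squares) and the main setting (black bar). Fabp4, Cebpb and Lpl stay below 0 and Cebpd above 0 in all of them, whereas Cd36, Cebpa, Angptl4 and Plin2 cross 0.

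Other genes of the pathway were followed as lists. Among 24 further adipogenic factors, 16 were tested, of which 12 had a positive and 4 a negative log2 fold change (median 0.19). An unadjusted p under 0.05 was reached by 1 that was higher and 2 that were lower. In all lists such counts are to be read against the 5.11% of all tested genes that were higher and the 5.77% that were lower at this threshold. The higher one was Ebf1, an early factor of the fat lineage, with 109, 159 and 178 normalised counts untreated and 220, 285 and 225 treated (0.73, unadjusted p 0.0209 by limma). The lower ones were Zfp467, a zinc finger protein that favours fat over bone (-1.11, unadjusted p 0.0145), and Srebf1, the regulator of fatty acid synthesis (-0.78, unadjusted p 0.0242). Zfp467 passed the study thresholds, with 71, 60 and 40 normalised counts untreated and 30, 33 and 16 treated. Nr3c1, the glucocorticoid receptor, had a log2 fold change of 0.61 (unadjusted p 0.0848). No gene of this list passed an adjusted p of 0.05. With 1 library left out, Ebf1 lost its unadjusted p under 0.05 without untreated replicate 1 (0.52) or amisulpride replicate 2 (0.61), Zfp467 without untreated replicate 1 (-0.93), and Srebf1 without untreated replicate 2 (-0.66), untreated replicate 3 (-0.70) or amisulpride replicate 3 (-0.51).

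Among 20 genes that restrain adipogenesis, 15 were tested, 9 of them positive and 6 negative (median 0.05). The 2 with an unadjusted p under 0.05 were both higher, against 5.11% higher and 5.77% lower among all tested genes. Ddit3 encodes CHOP, a stress-induced C/EBP family member that dimerises with C/EBPβ and C/EBPα and blocks their binding, and had 253, 221 and 214 normalised counts untreated and 480, 695 and 306 treated (log2 fold change 1.03, unadjusted p 0.00582 by limma). Klf2, a Krüppel-like factor that represses Pparg, had 176, 89 and 134 untreated and 270, 253 and 236 treated (0.97, unadjusted p 0.00578). For both, every treated library lay above every untreated one, and neither passed after adjustment (Ddit3 did without amisulpride replicate 3, at an adjusted p of 0.0271 by limma). Yap1, a Hippo pathway coactivator, had a log2 fold change of -0.40 (unadjusted p 0.135 by limma).

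Among 29 genes of triglyceride synthesis and lipid droplets, 28 were in the table and 17 were tested, with 11 positive and 6 negative log2 fold changes (median 0.11). Dgat1, which makes triglyceride from diglyceride, was lower (-0.56, unadjusted p 0.046 by limma) and Hsd17b11, a droplet-associated enzyme, higher (0.61, unadjusted p 0.0485), and neither passed after adjustment. Both lost this p in most fits with 1 library left out, Dgat1 without untreated replicate 2 or 3 or amisulpride replicate 1 or 2 (-0.56 to -0.46) and Hsd17b11 in all but the fit without amisulpride replicate 1 (0.47 to 0.71 in the 5 others). Agpat3 and Abhd5, an acyltransferase and the activator of the main triglyceride lipase, had log2 fold changes of 0.55 and 0.39 (unadjusted p 0.0534 and 0.198). Plin1 and Plin5, the coat proteins of fat cell and oxidative tissue droplets, had at most 2 normalised counts.

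Among 18 genes of fatty acid uptake and activation, 13 were tested, 6 positive and 7 negative (median -0.16), with 1 higher and 3 lower at an unadjusted p under 0.05. With the replicate block 1 was higher and 4 were lower, against 7.14% and 7.43% of all tested genes. Angptl2, a secreted angiopoietin-like protein related to Angptl4, was the only gene of all these lists to pass the adjusted test, and fell from 1102, 1181 and 1168 normalised counts untreated to 535, 309 and 428 treated (log2 fold change -1.47 ± 0.26 SE, adjusted p = 0.0443 by limma). Slc27a1, a fatty acid transporter, and Acsl4, which activates arachidonic acid, were lower (-0.86, unadjusted p 0.0249, and -0.57, unadjusted p 0.0333), and Vldlr, a receptor for triglyceride-rich lipoproteins, was higher (0.73, unadjusted p 0.0192). The last 3 did not pass after adjustment. The unadjusted p was no longer under 0.05 for Slc27a1 without untreated replicate 1 or 2 or amisulpride replicate 2 (-0.83 to -0.76), for Acsl4 in all fits with 1 library left out but that without amisulpride replicate 3 (-0.62 to -0.47), or for Vldlr without amisulpride replicate 2 (0.68). With 1 library left out, the adjusted p of Angptl2 ranged from 0.0189 to 0.232 by limma and was under 0.05 only without amisulpride replicate 3, while its log2 fold change stayed between -1.66 and -1.26.

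A list of 23 genes held genes of fatty acid oxidation known as PPAR targets, and the receptors Ppara and Ppard. Of the 23, 16 were tested, Ppard among them, with 8 positive and 8 negative (median 0.02). At an unadjusted p under 0.05, 2 were higher and 0 lower, against 5.11% and 5.77% of all tested genes. With the replicate block 3 were higher and 0 lower, against 7.14% and 7.43%. Acot2, a mitochondrial acyl-CoA thioesterase, had 31, 28 and 43 normalised counts untreated and 81, 108 and 106 treated (log2 fold change 1.52 ± 0.30 SE, adjusted p = 0.0668 by limma, and 0.0155 with the replicate block). Cpt2, the inner carnitine palmitoyltransferase, had 66, 75 and 52 untreated and 104, 135 and 310 treated (1.35, unadjusted p 0.00472, and 0.89 without amisulpride replicate 3). Cpt1a, the outer one, and Pdk4, which turns cells from glucose to fat, had log2 fold changes of 0.59 and -0.65 (unadjusted p 0.0583 and 0.16), and Cpt1a had an unadjusted p of 0.0453 with the replicate block. Over these 5 lists, 13 of 77 tested genes had an unadjusted p under 0.05, 7 higher and 6 lower. Of all tested genes, 10.9% had one in either direction. The lists were chosen with earlier results of these data known, so this share is description and not a test. Of the 13, 5 (Angptl2, Acot2, Cpt2, Klf2 and Ddit3) had such a p in each of the 6 fits with 1 library left out, and all 13 kept their direction.

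**Figure D4:**
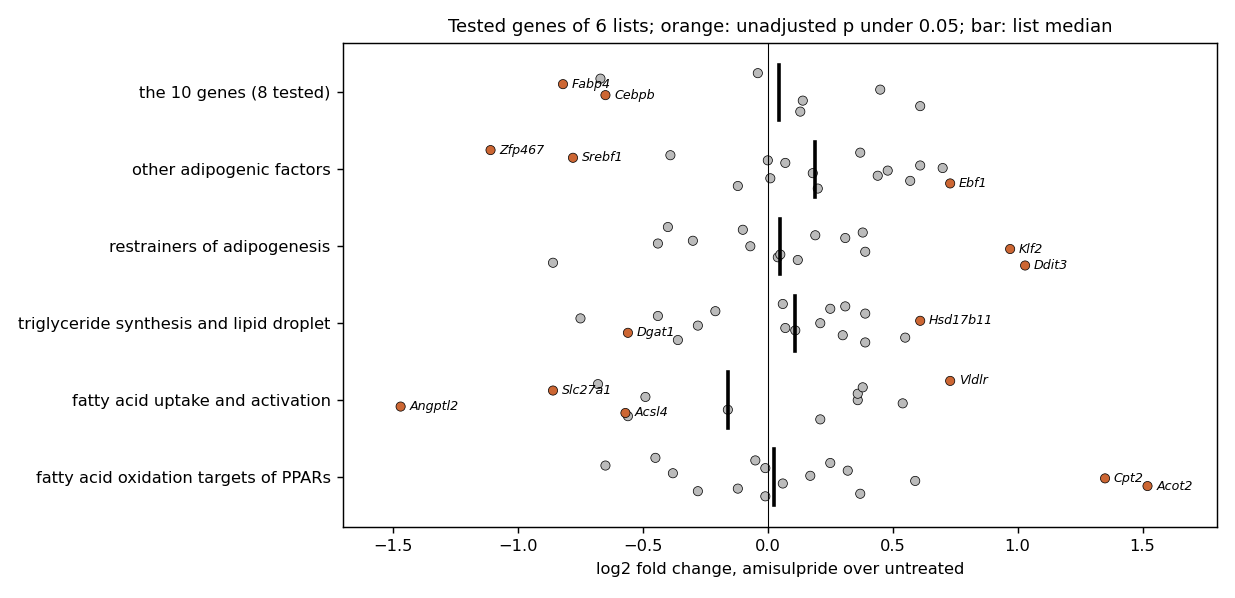
Log2 fold change of amisulpride over untreated (horizontal axis) of the tested genes of 6 lists, each point a gene, with the list median as a bar. Orange points with names have an unadjusted p under 0.05 by limma; they are found on both sides of 0 in the lists of adipogenic factors, triglyceride and uptake genes, and the list medians lie between -0.16 and 0.19.

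The summed value of macrophage markers was set beside the values of these genes in each library. All 20 markers listed were detected and 19 were tested, and their summed value was 6391, 3247 and 3955 normalised counts in untreated replicates 1, 2 and 3 and 5710, 3013 and 3296 in the treated ones. Replicate 1 was the highest and replicate 2 the lowest in both groups, which is also the order of Cd36. The sum is weighted to abundant markers, with Lyz2 alone at 3046 in untreated replicate 1 and 3287 in amisulpride replicate 1. Single markers did not all follow its order. Csf1r had 41, 23 and 100 normalised counts in amisulpride replicates 1, 2 and 3, and some other markers were also highest in amisulpride replicate 3 among the treated libraries. Plin2 and Lpl were highest in replicate 1 of each group too, whereas Fabp4 was not. They did not share the rest of the order, since untreated Lpl was lowest in replicate 3 and Plin2 was nearly equal in replicates 2 and 3. The part of macrophage RNA in the values of Cd36, Plin2, Lpl and Fabp4 was not tested. Among the markers tested, 8 had a positive and 11 a negative log2 fold change (median -0.15). At an unadjusted p under 0.05, 1 was higher and 3 lower, against 5.11% and 5.77% of all tested genes. With the replicate block 3 were higher and 6 lower, against 7.14% and 7.43%. Cd14, an endotoxin coreceptor, was lower (-1.74, unadjusted p 0.00223 by limma), as were Spi1, the lineage factor PU.1 (-1.61, unadjusted p 0.0165), and Csf1r, the receptor for the macrophage growth factor (-1.01, unadjusted p 0.0486), while C1qc, a complement subunit, was higher (0.95, unadjusted p 0.0392). None passed an adjusted p of 0.05, but Cd14 and Spi1 did with the replicate block (adjusted p = 0.012 and 0.026). With 1 library left out, Cd14 kept an unadjusted p under 0.05 in all 6 fits (-2.19 to -1.30). Spi1 ranged from -2.17 to -0.81, the latter without amisulpride replicate 2, and lost this p without untreated replicate 1 (-1.36, unadjusted p 0.0774). Csf1r was -0.53 without amisulpride replicate 2 and kept this p only without amisulpride replicate 3 (-1.57). C1qc lost it without untreated replicate 2 (0.65), untreated replicate 3 (0.83), amisulpride replicate 1 (0.80) or amisulpride replicate 3 (0.81). Lyz2, the lysozyme of myeloid cells and the most abundant of the list, had 1733 to 3046 normalised counts untreated and 1394 to 3287 treated. Ptprc, which encodes CD45, had 12 to 38 untreated and 5 to 23 treated (unadjusted p 0.104, and 0.036 with the replicate block).

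**Figure D5:**
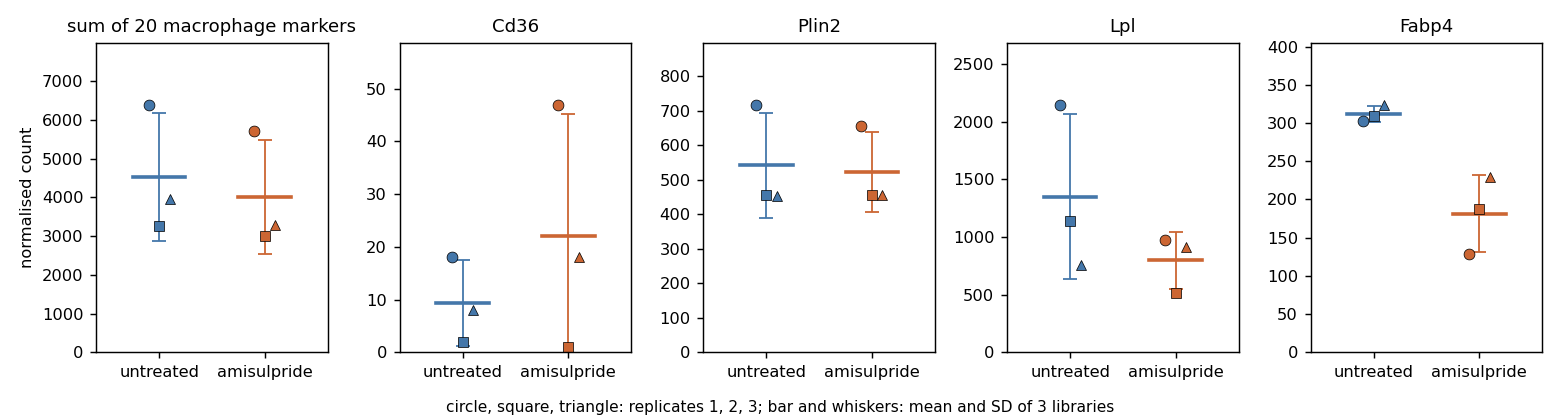
Normalised counts (vertical axes, linear from 0) of the sum of 20 macrophage markers and of Cd36, Plin2, Lpl and Fabp4 by library, drawn as in the plot of all 10 genes. The circles, replicate 1, are the highest of each group for the sum, Cd36, Plin2 and Lpl, and the lowest for Fabp4.

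Of 15 endothelial markers, 4 were at 0 in every library (Cdh5, Cldn5, Ptprb and Tie1) and only Egfl7 was tested, with 66, 84 and 78 normalised counts untreated and 50, 59 and 25 treated (log2 fold change -0.83, unadjusted p 0.0386 by limma). Without amisulpride replicate 3 it was -0.47, and the unadjusted p was over 0.05 there and without untreated replicate 1 (-0.93), 2 (-0.76) or 3 (-0.81). The summed value of the 15 was 88 to 110 in untreated and 31 to 72 in treated libraries. Egfl7 made up most of this sum in every library, so the sum mainly repeats that gene. Of the 16 fibroblast markers, 11 had a positive and 5 a negative log2 fold change (median 0.19), and 1, Prg4, the lubricin of lining SFs, had an unadjusted p under 0.05 (-0.92, unadjusted p 0.00924, and -0.66 with an unadjusted p of 0.0507 without amisulpride replicate 2). Col1a2, Pdpn and Lum, a collagen chain, podoplanin and the proteoglycan lumican, had log2 fold changes of 0.71, -0.67 and -1.07 (unadjusted p 0.0601, 0.083 and 0.0901). With the replicate block these were 0.0386, 0.0277 and 0.00149 by limma. In that fit 2 fibroblast markers were higher and 3 lower at an unadjusted p under 0.05, against 7.14% and 7.43% of all tested genes.

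The genes whose values ran most like each of the 8 were sought among 7244 or 7245 protein-coding genes with a mean of at least 50, by Pearson's r of the log2 values over the 6 libraries, which share treatment, depth and culture with each other. Cebpb ran most like Chchd4 (r = 0.995), Chst12 (0.993) and Mycbp (0.988), all of them lower in the treated libraries. Chst12, a chondroitin sulfotransferase, had 233, 144 and 113 normalised counts untreated and 105, 58 and 54 treated. Fabp4 ran most like Pex19 (r = 0.988), Aldh16a1 (0.986) and Epb41l3 (0.984). Cebpd ran most like Actr3b, Tma7 and Ifnar2 (r = 0.976 to 0.987), Cebpa like Gpn1, Zfp26 and Daxx (0.942 to 0.957), and Lpl like Atxn3, Copz1 and Adam8 (0.974 to 0.995). Plin2 ran most like Ttc19, Cd1d1 and Capn1 (r = 0.990 to 0.997), which had the same high values in replicate 1 of both groups. Cd36 ran most like Ddhd2, Gnb1 and Hnrnpm (r = 0.955 to 0.978). Angptl4 ran most like Rxrb (r = 0.989), which encodes a partner of the PPARs and is in the list of adipogenic factors, and Mbd2 and Sh2b1 (0.979 and 0.976). Among so many genes and over 6 libraries, such values describe the order of the libraries and no more.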

How the data were processed

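The authors mapped the 3′ mRNA reads (QuantSeq, Ion Proton) to mm10 with TopHat2 and then Bowtie2, and counted them with GenomicRanges. They normalised the counts, by a method that the study's text does not name, and tested them with DESeq, through metaseqr. The deposited values are thus a score, namely normalised counts that the authors rounded. Tool versions are not given in the sources used here. The deposited fold changes and p-values, and 12 further columns of values per library, were not used. The value of 1 read was estimated from the steps of low values. Floors cover counting error only.

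Treated and untreated libraries were tested, two-sided, with limma (version 3.58.1, under R 4.3.3) with variance trend on log2(normalised count + 1), a scale on which changes of low genes come out too small. The 12614 genes with at least 10 in at least 3 of 6 libraries entered, with Benjamini-Hochberg adjustment over all of them. The fit was tested on simulated data. An exact permutation test cannot go below 0.1 with 3 against 3 and was not used. Same-numbered libraries deviated together (correlations of 0.201 to 0.240, against -0.149 to -0.078 between numbers). Deviations from a mean of 3 libraries cancel out, so a positive correlation for the same number lowers those between numbers. The labels give the replicate numbers but not what a number shares, so pairing is possible and not settled. The main fit and those with 1 library left out do not use it. A fit with this block is given where it changed a call of a named gene. The study calls the replicates biological. From which mice or cultures they came is not given in the sources used here.

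The 10 genes and all lists were chosen with earlier results of these data known. Named genes are the 10, up to 4 of lowest p in each other list, and the 3 most alike each tested gene. A gene of the lists that this rule names is not reported here. Fabp5, Plin1, Plin5, Lyz2, Ptprc, the markers at 0 and genes overlapping a regulator were named after their values were seen. A marker name carried by several genes was read from the most abundant. Gene models are those of GENCODE M21. Alternatives were another pseudocount, 2 filters, 2 scalings, library weights, the replicate block and leaving out each library.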

Additional observations from a re-analysis of the deposited data

How the results depend on the processing

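Depth limits Pparg, Cd36 and Adipoq, whose values lay around or below that of 3 reads in some libraries. The number of genes with an adjusted p under 0.05 by limma was 36, and became 57 with a pseudocount of 5, 57 without a filter on low values, 66 with quantile normalisation, 195 with library weights, 263 with the replicate block and 0 to 120 with 1 library left out. Leaving out untreated replicate 2 or 3 gave 0 (1083 and 911 genes at an unadjusted p under 0.05), untreated replicate 1 gave 1, and amisulpride replicates 1, 2 and 3 gave 17, 6 and 120. Without both libraries of replicate 1 it was 0, with 1031 at an unadjusted p under 0.05. The number past the study thresholds was 719, and became 1313 without a filter and 563 to 1000 with 1 library left out.

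Of the 10 genes, 0 passed the study thresholds, and 1 did without a filter (Pparg) and 0 to 1 with 1 library left out, namely Lpl without untreated replicate 3, Cd36 without amisulpride replicate 2 and Fabp4 without amisulpride replicate 3. The number with an unadjusted p under 0.05 was 2, and became 3 without a filter, 3 with the replicate block, 1 to 3 with 1 library left out and 1 without both libraries of replicate 1. The median log2 fold change of those tested was 0.05, and -0.22 to 0.05 with 1 library left out. These medians are not all over the same genes. Without untreated replicate 1, amisulpride replicate 1 or amisulpride replicate 3, only 7 genes were tested, since Cd36 did not pass the filter. Directions reversed for 4 genes with no call. Plin2 (-0.04) was 0.10 with library weights, 0.00 without both libraries of replicate 1 and -0.22 to 0.18 with 1 library left out. Angptl4 (0.13) was -0.07 without both libraries of replicate 1 and -0.24 to 0.45 with 1 library left out, Cebpa (0.14) -0.04 to 0.29 and Cd36 (0.61) -0.10 to 1.92. The replicate block changed no call of the 8 tested genes other than that of Lpl. Among the genes named from the lists, it brought Acot2, Cd14 and Spi1 under an adjusted p of 0.05 and Cpt1a, Col1a2, Pdpn, Lum and Ptprc under an unadjusted one. Some genes of the lists that are not named changed too. Cd36 was not tested at a mean of at least 20 or without untreated replicate 1, amisulpride replicate 1, amisulpride replicate 3 or both libraries of replicate 1. It did not pass the filter in these settings. The cause of these changes was not tested.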

Other observations

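Relatives of the 10 genes were looked at after the values were seen. Of the PPAR family, which binds fatty acids and their derivatives, Ppara had at most 1 normalised count in a library, while Ppard, the form found in most tissues, had 46, 35 and 74 untreated and 87, 52 and 45 treated (log2 fold change 0.25, unadjusted p 0.512 by limma). Of the C/EBP family, Cebpg, a widely expressed member that lacks an activation domain, had 112, 163 and 175 untreated and 147, 167 and 199 treated (0.20, unadjusted p 0.471). Ppara and Ppard belong to the list of fatty acid oxidation genes above and Cebpg to that of adipogenic factors, so their lists' counts include them.

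The ratio of Cebpd to Cebpb within a library, a measure chosen after both were seen, was 1.39, 2.06 and 1.52 in untreated replicates 1, 2 and 3 and 2.82, 3.66 and 4.20 in amisulpride replicates 1, 2 and 3. The groups did not overlap, and could not have done so. Every treated library was already above every untreated one for Cebpd and below every untreated one for Cebpb. The ratio therefore adds nothing to the values of the genes themselves. No test is given, since neither gene passed the adjusted test and the ratio was picked for its direction.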
